A study of Canis lupus familiaris with 89 samples.

Results

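Cholesterol is made from acetyl-CoA in a long chain of enzyme steps that run from the cytosol to the endoplasmic reticulum. The transcription factor SREBP2, encoded by SREBF2, is released from the endoplasmic reticulum when sterols are scarce and switches on the genes of the whole chain. Milk-forming epithelium makes cholesterol for membranes and milk fat, and dividing cells need it for new membranes. The genes described here are 7 genes of this pathway, taken by name, of 32496 gene rows in the count tables: ACAT2, HMGCS1, FDFT1, SQLE, CYP51A1, DHCR7 and SREBF2. They were followed through tissue classes, detailed histology types and single dogs. Their identifiers in the count tables are ENSCAFG00000000720 for ACAT2, ENSCAFG00000018572 for HMGCS1, ENSCAFG00000007948 for FDFT1, ENSCAFG00000001056 for SQLE, ENSCAFG00000001945 for CYP51A1, ENSCAFG00000010424 for DHCR7 and ENSCAFG00000001013 for SREBF2. Genome positions are not used here.

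The study sequenced polyadenylated RNA of mammary tissue from dogs with mammary tumors, of diverse breeds, with no transgene and no drug named in the labels. There were 89 libraries from 16 dogs, 3 to 9 from each dog, and every dog gave normal, benign and malignant tissue. The 26 libraries labelled normal comprised 14 of lobular hyperplasia, 6 of duct ectasia, 4 of atypia and 2 whose detailed histology is also normal. The reference tissue of the comparisons with the normal class is therefore mostly non-neoplastic lesions of tumor-bearing dogs. The 41 benign libraries were 23 adenomas and 18 complex adenomas, and the 22 malignant libraries were 15 carcinomas, 4 mixed carcinomas and 3 carcinomas in situ.

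The libraries held 6.09 to 68.4 M reads that fell in genes, with a median of 36.8 M. Each of the 6 luminal epithelium markers was detected in every library, and their summed level ranged from 1467 to 9316 CPM, with medians of 5324 CPM in normal, 4931 CPM in benign and 4085 CPM in malignant libraries. Of these 6 markers GATA3 was called lower in malignant against normal tissue, EPCAM in benign against normal, and GATA3 and ESR1 in malignant against benign. The classes differed in tissue make-up and RNA quality. The summed level of 9 adipocyte markers had medians of 456 CPM in normal (range 181 to 3395), 295 CPM in benign (131 to 825) and 280 CPM in malignant libraries (124 to 733), with FABP4 at 0 in at least 1 library. The summed level of 9 skeletal muscle markers had medians of 210 CPM in normal, 173 CPM in benign and 212 CPM in malignant libraries. It reached 31533 CPM in a normal and 35552 CPM in a benign library, against 2000 CPM at most in malignant ones. CKM, MYH1 and TMOD4 were each at 0 in some library. A muscle score above 3 was found in 12 libraries, of which 8 were normal, 2 benign and 2 malignant. The summed level of 7 markers of dividing cells had medians of 71.3 CPM in normal (14.9 to 755), 159 CPM in benign (18.0 to 662) and 178 CPM in malignant libraries (35.2 to 555). Of 8 milk secretion markers 7 were called lower in benign and 2 in malignant against normal tissue, with median log2 fold changes of -2.35 and -1.89. In benign tissue 3 of 5 endothelial and 3 of 5 T and NK cell markers were also called lower. The median RNA integrity number was 8.1 in 22 normal, 9.25 in 40 benign and 9.6 in 19 malignant libraries.

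The question of how malignant tissue differed from normal tissue of the same dog was asked in a model with dog as a block. In malignant tissue HMGCS1 and ACAT2, the enzymes that open the pathway, rose 1.61-fold and 1.36-fold. SQLE, CYP51A1, DHCR7 and SREBF2 had positive differences that did not pass the test, and FDFT1 stood near 0. These are bulk samples, in which more cells that express a gene and more RNA per cell cannot be told apart. Of the 7 genes, 2 were called higher and 0 lower at an adjusted p under 0.05, against 7.3% of the 16806 genes tested (4.42% called higher and 2.88% lower). By edgeR 5 of 7 had an unadjusted p under 0.05, against 3944 of the 16806 genes. DESeq2 called 4 of 7, against 2151 of all genes. The median log2 fold change of the 7 genes was 0.39, and 6 of 7 were positive, against a median of 0.0029 over all genes tested.

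HMGCS1 encodes cytosolic HMG-CoA synthase, which joins acetoacetyl-CoA and acetyl-CoA. Its level was 28.8 CPM in the lowest, 40.002 CPM in the median and 180 CPM in the highest normal library. In malignant libraries these values were 33.9, 56.1 and 198 CPM, and in benign libraries 21.8, 50.5 and 135 CPM. The 3 classes overlapped over most of their range, and the highest normal value came from a single lobular hyperplasia far above the rest of its class. The log2 fold change of malignant against normal was 0.69 ± 0.16 (SE), with an adjusted p of 0.0086, and the malignant mean was the higher in 13 of 16 dogs. With sequencing run added to the model it was 0.63, with an adjusted p of 0.020. In fits that leave out each dog in turn the call held in 16 of 16, with adjusted p from 0.0014 to 0.042.

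ACAT2, the cytosolic thiolase that makes acetoacetyl-CoA, stands a step earlier. Its level ran from 13.0 over a median of 24.3 to 34.2 CPM in normal libraries. In malignant libraries it ran from 19.9 over 32.2 to 51.0 CPM, and in benign ones from 12.5 over 27.3 to 61.6 CPM. No malignant library was as low as the lowest normal ones, and several were higher than all normal libraries. Malignant against normal, the log2 fold change was 0.45 ± 0.13 with an adjusted p of 0.021, and 14 of 16 dogs had the higher mean in malignant tissue. It was 0.47 with an adjusted p of 0.020 when sequencing run was added. The adjusted p was 0.066 without dog 13, and the call held in the other 15 omissions.

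The calls of HMGCS1 and ACAT2 were lost in several fits that took up the differences in tissue or RNA quality. When the adipocyte score entered the model, the log2 fold changes of malignant against normal were 0.57 for HMGCS1 and 0.34 for ACAT2, with adjusted p of 0.149 and 0.26. With the 12 libraries of high muscle score left out they were 0.60 and 0.39, with adjusted p of 0.13 and 0.199. With the RNA integrity number as a covariate they were 0.72 and 0.41, with adjusted p of 0.054 and 0.17. With the score of dividing cells, added after the data were seen, they were 0.40 and 0.29, with adjusted p of 0.32 and 0.34. With the luminal epithelium score, likewise added, they were 0.34 and 0.42, with adjusted p of 0.53 and 0.26. The sign stayed positive in each of these fits, and the part of tissue make-up, milk secretion markers included, in the result was not tested beyond them. With counts summed per dog and class the call of HMGCS1 was lost as well, at 0.58 with an adjusted p of 0.085, while that of ACAT2 held. Of 14 alternatives in all, HMGCS1 passed in 8 and ACAT2 in 9.

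Of the 7 genes SQLE varied most between libraries, the highest of which exceeded the lowest 44.5-fold. SQLE encodes squalene epoxidase, which adds oxygen to squalene and is a slow, tightly controlled step. Its level ran from 7.64 over a median of 22.7 to 64.5 CPM in normal, from 3.48 over 29.9 to 114 CPM in benign and from 4.78 over 35.9 to 157 CPM in malignant libraries. Its malignant median lay above the normal one, yet both the lowest and the highest libraries of the 2 tumor classes lay outside the normal range. The log2 fold change of malignant against normal was 0.73 ± 0.25 with an adjusted p of 0.054, and 12 of 16 dogs were higher in malignant tissue. This estimate was as large as that of HMGCS1 with a wider error, and it rested in part on dog 47, without which it was 0.58 with an adjusted p of 0.13.

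CYP51A1, the lanosterol demethylase, ran from 16.1 over 41.3 to 91.1 CPM in normal, from 25.3 over 46.2 to 95.4 CPM in benign and from 27.1 over 55.7 to 97.6 CPM in malignant libraries. The upper ends of the classes were alike, and the lowest values, below those of every tumor library, came from normal tissue. For malignant against normal tissue the model gave a log2 fold change of 0.39 ± 0.14 with an adjusted p of 0.060, positive in 13 of 16 dogs. With the adipocyte score in the model it was 0.15, and with that of dividing cells 0.17.

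FDFT1 encodes squalene synthase, the enzyme that commits farnesyl units to sterols. It was the member with no positive difference between malignant and normal tissue. It ran from 52.7 over 99.0 to 146 CPM in normal, from 61.6 over 95.2 to 197 CPM in benign and from 50.4 over 90.4 to 181 CPM in malignant libraries. The malignant median was the lowest of the 3, and the ranges overlapped almost fully. The log2 fold change of malignant against normal was -0.03 ± 0.12 with an adjusted p of 0.92, and the malignant mean was higher in 5 of 16 dogs. Its sign turned in some alternatives.

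SREBF2 ran from 55.5 over 182 to 278 CPM in normal, from 91.1 over 160 to 327 CPM in benign and from 137 over 185 to 318 CPM in malignant libraries. The medians of normal and malignant tissue were close, and the lowest normal libraries had no counterpart in malignant tissue. In the model the malignant class differed from normal by a log2 fold change of 0.22 ± 0.12 with an adjusted p of 0.24, and 10 of 16 dogs were higher.

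**Figure D1:**
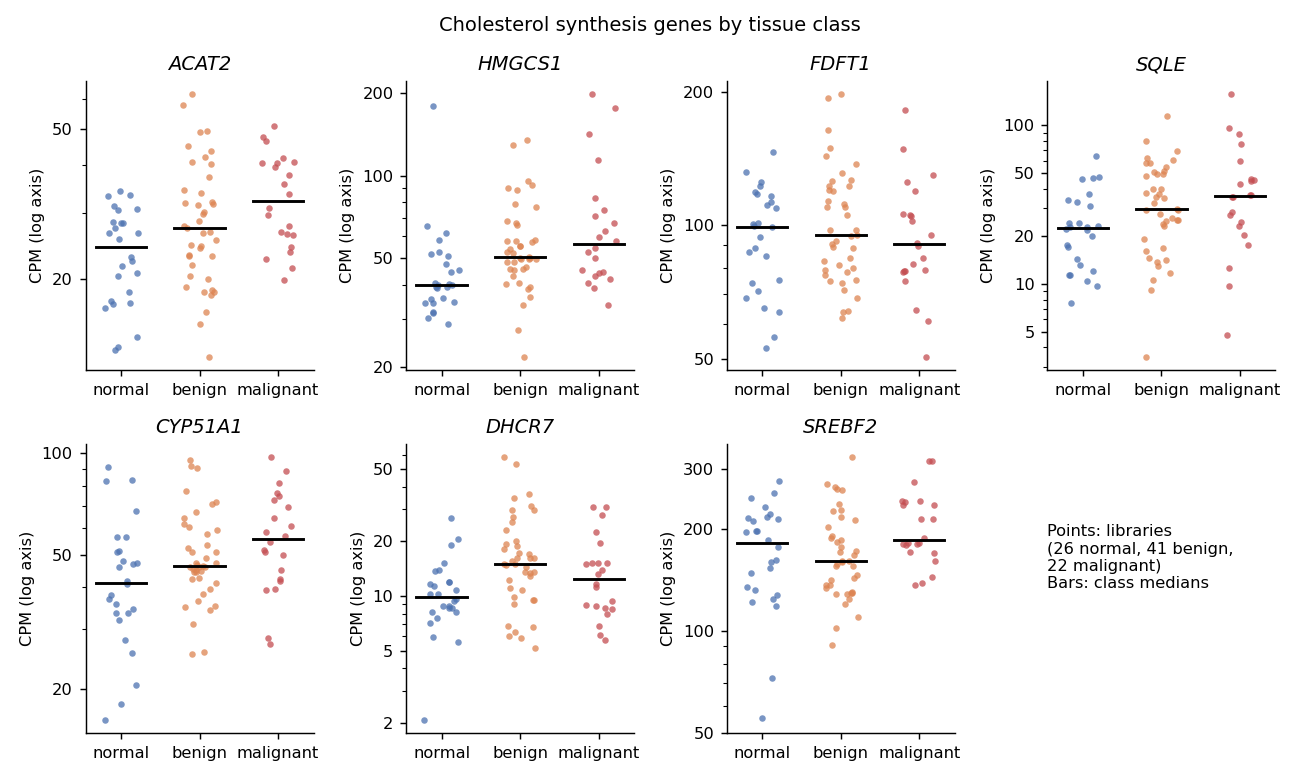
Level of the 7 cholesterol synthesis genes in each of 89 libraries, in CPM on a log axis, by tissue class, with class medians as bars. All classes overlap, and the median of HMGCS1 moves from 40.002 CPM in normal over 50.5 in benign to 56.1 CPM in malignant libraries, while that of FDFT1 lies between 90.4 and 99.0 CPM.

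Benign tumors were compared with the same normal libraries, so the 2 comparisons share their reference and are given side by side without a measure of likeness. In benign tissue DHCR7, the reductase that makes cholesterol from its direct precursor and is mutated in Smith-Lemli-Opitz syndrome in people, rose 1.58-fold. No other member passed the test. Thus 1 of 7 genes was called higher and 0 lower, against 11.9% of all genes tested (6.45% called higher and 5.46% lower). By edgeR 5 of 7 had an unadjusted p under 0.05, against 4657 of the 16806 genes tested. DESeq2 called 2 of 7, against 2991 of all genes. The median log2 fold change of the 7 genes was 0.30, with 6 of 7 positive, against -0.0034 over all genes tested.

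The level of DHCR7 was 2.08 CPM in the lowest, 9.91 CPM in the median and 26.9 CPM in the highest normal library. In benign libraries these values were 5.19, 15.1 and 58.5 CPM, and in malignant ones 5.74, 12.4 and 31.1 CPM. Several benign libraries, adenomas and complex adenomas alike, lay above every normal library, and the low ends of the classes were close except for 1 very low lobular hyperplasia of dog 47. The log2 fold change of benign against normal was 0.66 ± 0.17 with an adjusted p of 0.0074, and 13 of 16 dogs were higher in benign tissue. With sequencing run added it was 0.78 with an adjusted p of 0.011, and in 16 of 16 omissions of a dog the call held, with adjusted p up to 0.028. It was 0.71 with an adjusted p of 0.26 when the adipocyte score entered the model, 0.53 and 0.21 when libraries of high muscle score were left out, 0.66 and 0.12 with the RNA integrity number as a covariate, and 0.56 and 0.059 with counts summed per dog and class. With the score of dividing cells and with that of luminal epithelium it was 0.58 and 0.70, and the call held in both. The milk secretion, endothelial and T and NK cell markers that were lower in benign tissue moved with this call, and their part in it was not tested.

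Of the members that did not pass in benign tissue, ACAT2 came nearest, with 0.30 ± 0.11 and an adjusted p of 0.062, higher in 12 of 16 dogs. SQLE stood at 0.51 ± 0.22 and HMGCS1 at 0.33 ± 0.14, each with an adjusted p of 0.11. CYP51A1 stood at 0.25 ± 0.12 with an adjusted p of 0.17. FDFT1 and SREBF2 stood near 0, at 0.12 ± 0.10 and -0.05 ± 0.10.

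The direct comparison of malignant with benign tissue bears on whether the changes were particular to one tumor class. None of the 7 genes was called there by edgeR (0 of 7), against 0.91% of all genes. DESeq2 called 0 of 7, against 554 of all genes. By edgeR 2 of 7 had an unadjusted p under 0.05, against 2207 of the 16806 genes tested. Those 2 were HMGCS1, at 0.35 ± 0.15 with an adjusted p of 0.25, and SREBF2, at 0.28 ± 0.11 with an adjusted p of 0.22. DHCR7 had the opposite sign, at -0.27 ± 0.18 with an adjusted p of 0.56, and 11 of 16 dogs were lower in malignant tissue. A call of HMGCS1 in malignant tissue and of DHCR7 in benign tissue therefore does not show that the tumor classes differ in these genes.

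**Figure D2:**
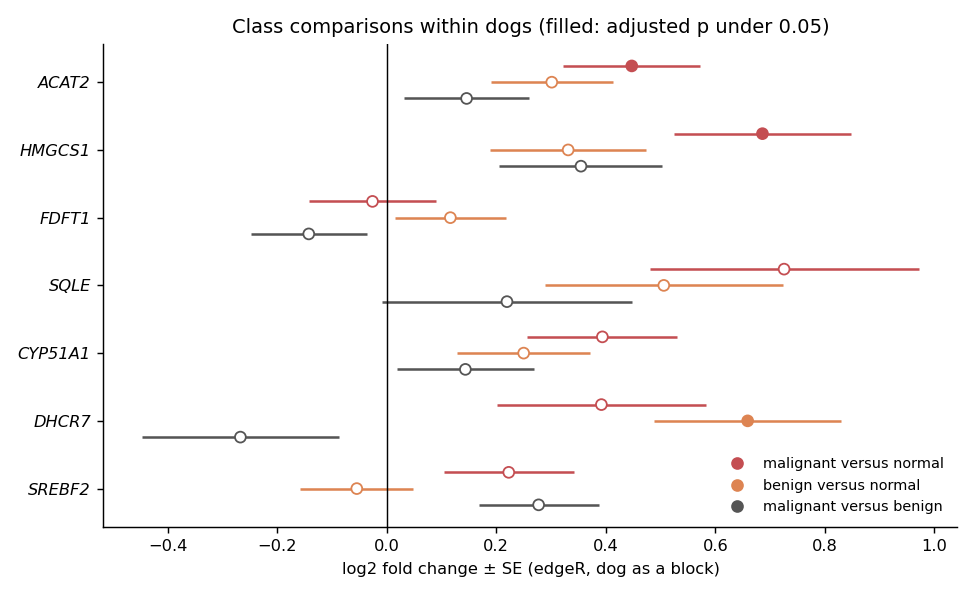
Log2 fold change with its SE for each gene in the 3 class comparisons, from the edgeR model with dog as a block, where filled points passed an adjusted p of 0.05. The filled points are HMGCS1 (0.69) and ACAT2 (0.45) in malignant and DHCR7 (0.66) in benign tissue.

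The detailed histology types put the same libraries into finer groups. In adenomas ACAT2 had a median of 30.1 CPM (range 12.5 to 61.6), against 22.7 CPM in lobular hyperplasias (13.0 to 34.2), 25.9 CPM in complex adenomas (15.2 to 57.6) and 29.6 CPM in carcinomas (19.9 to 51.0). HMGCS1 had medians of 42.3 CPM in lobular hyperplasias (31.7 to 180), 50.5 CPM in adenomas (21.8 to 135), 52.1 CPM in complex adenomas (27.4 to 95.4) and 57.5 CPM in carcinomas (33.9 to 198). These ranges overlapped throughout, and the order of the medians was set by small steps. SQLE had medians of 20.9 CPM in lobular hyperplasias (7.64 to 64.5), 29.9 CPM in adenomas (3.48 to 114), 30 CPM in complex adenomas (9.18 to 80.1) and 36.6 CPM in carcinomas (9.68 to 157). DHCR7 had medians of 10.5 CPM in lobular hyperplasias (2.08 to 20.5), 14.8 CPM in adenomas (5.89 to 58.5), 15.8 CPM in complex adenomas (5.19 to 53.2) and 11.7 CPM in carcinomas (6.12 to 30.8). SQLE was thus highest by median in carcinomas and DHCR7 in the benign types among these 4 groups.

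CYP51A1 had medians of 36.8 CPM in lobular hyperplasias, 50.8 CPM in adenomas, 46.1 CPM in complex adenomas and 54.6 CPM in carcinomas. FDFT1 had medians of 99.7, 97.4, 89.8 and 89.7 CPM in the same order of types, and SREBF2 of 140, 172, 158 and 189 CPM. The groups of 2 to 6 libraries add single values. The 2 samples called normal had 13.2 and 14.4 CPM of SQLE, 18.1 and 25.4 CPM of CYP51A1 and 30.2 and 35.5 CPM of HMGCS1. Their medians were the lowest of all 9 types for these genes and for ACAT2, while for FDFT1, at 117 and 119 CPM, their median was the highest. The 6 duct ectasias had the lowest median of FDFT1, at 72.6 CPM (range 52.7 to 99.3), and of DHCR7, at 8.34 CPM (5.57 to 15.2).

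The 3 carcinomas in situ had the highest medians of the 9 types for ACAT2, at 37.6 CPM (range 33.6 to 40.9), and HMGCS1, at 66.9 CPM (59.8 to 142). Their SQLE stood at 24.6 CPM (17.7 to 35.4) and their DHCR7 at 11.2 CPM (5.74 to 13.9), both below the median of carcinomas. The 4 mixed carcinomas had the highest median of DHCR7, at 17.3 CPM (9.39 to 31.1). The 4 atypias had the highest medians of CYP51A1, at 61.9 CPM (41.6 to 83.1), and SREBF2, at 213 CPM (154 to 256). These orders differ from gene to gene, and neighbours in each order overlapped.

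In the model of histology types with dog as a block, 0 of 7 members were called by edgeR in any of 5 comparisons. In adenoma against lobular hyperplasia edgeR called 0.0889% of 20243 genes, and DESeq2 called 1 member and 387 genes in all. An unadjusted p under 0.05 by edgeR was reached by 2 of 7 members, against 2430 of the 20243 genes. These 2 were DHCR7, at a log2 fold change of 0.81 ± 0.24 with an adjusted p of 0.15, and ACAT2, at 0.44 ± 0.16 with an adjusted p of 0.23. In complex adenoma against lobular hyperplasia, with 0.583% of genes called, DHCR7 alone had an unadjusted p under 0.05, at 0.65 ± 0.26. Over all genes 2379 had such a p there. In carcinoma against lobular hyperplasia, with 0.153% called, 4 of 7 members had it, against 2689 of all genes. These members were SQLE at 0.87 ± 0.33, DHCR7 at 0.57 ± 0.26, HMGCS1 at 0.56 ± 0.23 and ACAT2 at 0.42 ± 0.17. Their adjusted p ranged from 0.24 to 0.33. DESeq2 called 0 members in both of these comparisons, against 490 and 452 of all genes.

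The 2 benign types were also set against each other. All 7 log2 fold changes of complex adenoma against adenoma were negative, with a median of -0.23 against -0.034 over all genes, from -0.10 for FDFT1 to -0.31 for CYP51A1 and ACAT2. None passed by edgeR, where 0.0494% of genes were called, or by DESeq2, which called 200 genes. An unadjusted p under 0.05 by edgeR was reached by 2 of 7, against 1753 of all genes. In carcinoma against adenoma, where 0% of genes were called by edgeR (1380 at an unadjusted p under 0.05), the 7 values ran from -0.25 for DHCR7 to 0.37 for SQLE, with 0 members at an unadjusted p under 0.05 and 0 called by DESeq2.

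Within single dogs the genes moved unevenly. All 7 were higher in malignant than in normal tissue in 3 dogs, 6 of 7 in another 4, and in dog 70 1 of 7. In dog 47 the carcinoma had 198 CPM of HMGCS1 and 157 CPM of SQLE, the highest values of both genes in the series. The 2 lobular hyperplasias of this dog had 58.0 and 34.7 CPM of HMGCS1 and 11.5 and 46.0 CPM of SQLE, and its 2 adenomas 45.8 and 49.7 CPM of HMGCS1 and 37.6 and 13.8 CPM of SQLE. The carcinoma thus stood apart from its own adenomas as well as from the reference tissue, by differences of mean log2 CPM of 2.14 for HMGCS1 and 2.77 for SQLE against the latter. Its ACAT2, at 19.9 CPM, was the lowest of all malignant libraries.

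Dog 70 went the other way. Its lobular hyperplasia had 180 CPM of HMGCS1, the highest of all normal libraries, its adenoma 130 CPM and its carcinoma 43.0 CPM, a difference of mean log2 CPM between carcinoma and hyperplasia of -2.06. SQLE in the same 3 tissues was 36.8, 49.7 and 45.3 CPM, so HMGCS1 and SQLE did not move together there. In dog 17 SQLE was low in every tissue, at 11.5 CPM in the lobular hyperplasia, 11.7 and 3.48 CPM in the adenomas and 4.78 CPM in the mixed carcinoma. HMGCS1 in these 4 libraries was 39.96, 40.5, 33.6 and 41.9 CPM, each below the median of its class. Those medians were 40.002 CPM in normal, 50.5 CPM in benign and 56.1 CPM in malignant libraries.

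In dog 29 the carcinoma had 176 CPM of HMGCS1, against 30.2 CPM in the sample called normal, 61.5 CPM in the atypia and 78.9 and 27.4 CPM in the complex adenomas. In dog 13 the carcinoma in situ had 142 CPM of HMGCS1 and 74.5 CPM of CYP51A1, against 51.1 and 35.5 CPM of HMGCS1 and 27.8 and 18.1 CPM of CYP51A1 in its lobular hyperplasia and its sample called normal. DHCR7 was low in both tumors, at 7.97 CPM in the former and 5.74 CPM in the latter. HMGCS1 and DHCR7 thus moved in opposite directions in these 2 dogs. The carcinomas of dogs 29 and 47 and the carcinoma in situ of dog 13 had the lowest luminal epithelium scores of all 89 libraries, at -2.58, -2.21 and -1.82, against a malignant median of -0.34. The hyperplasia of dog 70 had the highest adipocyte score, at 4.03, against a normal median of 0.72. The part of these scores in the levels of HMGCS1 was not tested in single libraries.

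**Figure D3:**
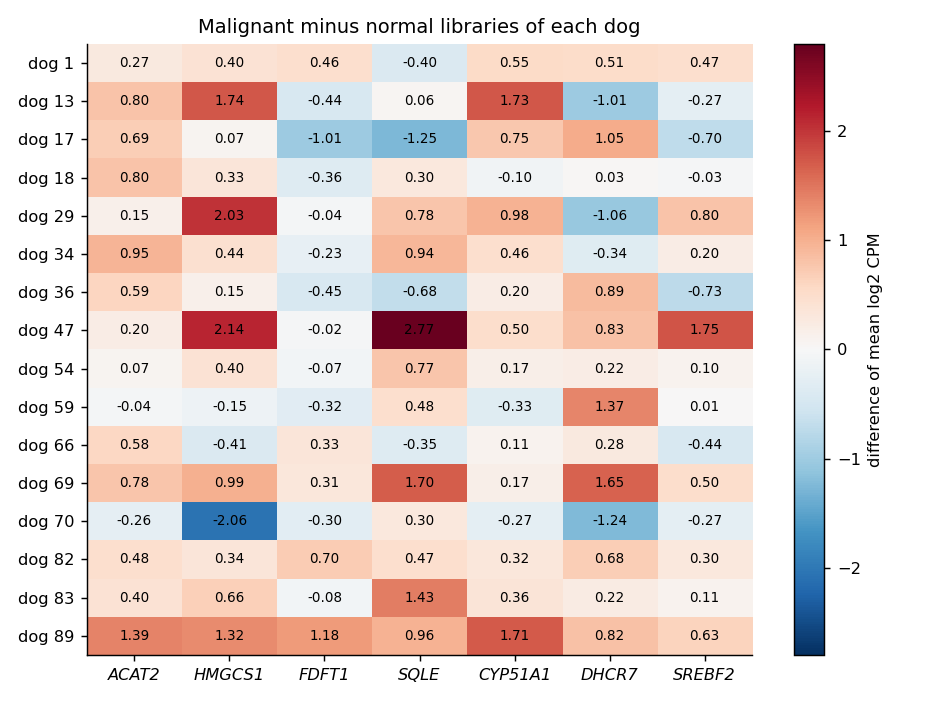
Difference of mean log2 CPM between malignant and normal libraries of each of 16 dogs for the 7 genes, printed in each cell, with red for higher in malignant. ACAT2 is positive in 14 dogs and FDFT1 in 5, and the extremes are SQLE in dog 47 (2.77) and HMGCS1 in dog 70 (-2.06).

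The share of variance that lay between dogs ranged from 23.4% for HMGCS1 to 42.9% for DHCR7 on the log2 CPM scale. Class, after dog, took 12.0% for ACAT2, 11.6% for HMGCS1, 10.5% for DHCR7, 8.58% for CYP51A1, 5.75% for SREBF2, 5.37% for SQLE and 2.84% for FDFT1. The 16 dogs can take up more variance than the 3 classes by their number alone, so the shares of dog and class are not ranked against each other. The highest library exceeded the lowest 44.5-fold for SQLE, 27.4-fold for DHCR7, 9.06-fold for HMGCS1, 6.03-fold for CYP51A1, 5.89-fold for SREBF2, 4.93-fold for ACAT2 and 3.91-fold for FDFT1. SQLE also spanned the most within a dog, 13.6-fold in dog 47.

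The series-wide table of scores gives the same genes on a scale with mean 0 and SD 1 over the libraries. The median score of HMGCS1 was -0.33 in normal, 0.080 in benign and 0.53 in malignant libraries, and that of ACAT2 -0.86, 0.25 and 0.60. DHCR7 had its highest median in benign tissue, at 0.42, against -0.76 in normal and 0.21 in malignant libraries. These orders of the class medians are those of the CPM. For FDFT1 the median score was 0.077 in normal, 0.12 in benign and -0.36 in malignant libraries, so that normal and benign traded places against the CPM. In the scores the spread of dog means was 0.161 to 0.279 times the spread within dogs, against 0.643 to 0.861 times in log2 CPM.

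Whether the genes rose and fell together was asked after the effects of dog and class had been removed from log2 CPM, over 89 libraries. Of 21 pairs of members, 15 were correlated at a permutation p adjusted over the 21 pairs under 0.05, all positive. Pairs of other genes were not counted in this way, so whether 15 of 21 is more than other genes show was not tested. The closest pair was HMGCS1 and CYP51A1, with a Pearson r of 0.57 and a Spearman rho of 0.56 (permutation p 1e-05 each, the smallest that 100000 permutations can give, adjusted 0.000105 and 0.00021). Without the 2 libraries farthest from the median of HMGCS1, r was 0.57. HMGCS1 and SQLE followed, with r 0.47 and rho 0.46 (permutation p 1e-05 and 2e-05, adjusted 0.000105 and 0.00021), and 0.44 without the 2 farthest. ACAT2 and CYP51A1 had r 0.46 and rho 0.42 (permutation p 6e-05 and 0.00027, adjusted 0.00042 and 0.000945), and 0.43 without them.

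SREBF2 was tied to HMGCS1, with r 0.42 and rho 0.42 (permutation p 0.00013 and 0.00017, adjusted 0.00068 and 0.00089), and to DHCR7, with r 0.41 and rho 0.43 (permutation p 0.00073 and 0.00022, adjusted 0.0026 and 0.00092). Without the 2 farthest libraries these r were 0.39 and 0.37. DHCR7 and FDFT1 were the loosest members. DHCR7 had r of 0.074 with FDFT1, 0.14 with SQLE and 0.18 with CYP51A1, and FDFT1 had 0.11 with ACAT2 and 0.14 with SREBF2, none of which passed. The remaining pair that did not pass was CYP51A1 and SREBF2, with r 0.23 and a permutation p of 0.041, adjusted 0.054. By rho it passed, at 0.28 with a permutation p of 0.015, adjusted 0.021.

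**Figure D4:**
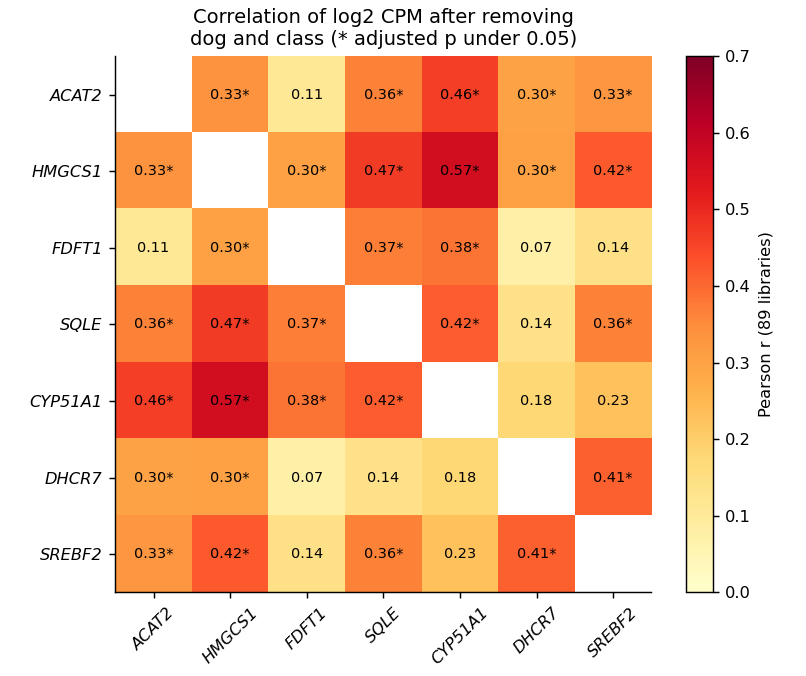
Pearson correlation between the 7 genes over 89 libraries, on log2 CPM after removal of dog and class, with a star where the permutation p adjusted over 21 pairs is under 0.05. The block of HMGCS1, SQLE and CYP51A1 holds values from 0.42 to 0.57, and FDFT1 with DHCR7 is lowest at 0.07.

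The members were also set against scores of 9 cell type lists and the RNA integrity number, 70 relations in all, on the same residuals. Of these, 6 passed the adjustment. The share of such relations among other genes was not computed. The score of dividing cells was positively related to CYP51A1, with r 0.54 and rho 0.50 (permutation p 2e-05 each, adjusted 0.0014 each), to HMGCS1, with r 0.47 and rho 0.42 (0.0001 and 0.00017, adjusted 0.00175 and 0.00298), and to ACAT2, with r 0.42 and rho 0.34 (0.00031 and 0.0031, adjusted 0.0043 and 0.036). Without the 2 farthest libraries these r were 0.54, 0.44 and 0.43. The dividing-cell markers were themselves higher in tumors, with 4 of 7 called in malignant and 1 of 7 in benign against normal tissue.

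The other 3 relations were negative. FDFT1 was related to the macrophage score, with r -0.47 and rho -0.50 (permutation p 5e-05 and 4e-05, adjusted 0.00175 and 0.0014), and HMGCS1 with the T and NK cell score, with r -0.41 and rho -0.42 (0.0001 and 0.00013, adjusted 0.00175 and 0.00298). CYP51A1 was related to the adipocyte score, with r -0.40 and rho -0.39 (permutation p 0.00105 and 0.00125, adjusted 0.012 and 0.018). Without the 2 farthest libraries they were -0.44, -0.44 and -0.41. DHCR7, SQLE and SREBF2 had no relation that passed. HMGCS1 and the luminal epithelium score did not pass, at r -0.42 and rho -0.29 (permutation p 0.0077 and 0.019, adjusted 0.077 and 0.11). Without the 2 farthest libraries this r was -0.35. With the adipocyte score HMGCS1 had r -0.17 (permutation p 0.29, adjusted 0.43). The RNA integrity number, in 81 libraries, was related to none of the 7, with r from -0.12 to 0.22.

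Among the genes with a symbol used here, the 8 whose profile was most like the mean of the 7, on the same residuals of 89 libraries, began with further enzymes of sterol supply. IDI1, the isopentenyl diphosphate isomerase, had r 0.71, ACLY, which makes cytosolic acetyl-CoA, 0.67, and LSS, lanosterol synthase, 0.64. Then came MASTL, a mitotic kinase, at 0.58, BAIAP2L1 at 0.57, DSP, the desmosome protein desmoplakin, at 0.56, CGGBP1 at 0.55 and PRELID3B at 0.55. The median r of all 12474 genes compared, those whose average log2 CPM reached 1, was 0.023. Over the 14 other synthesis enzymes taken up below, r ran from -0.053 for PMVK to 0.71 for IDI1. These are descriptions, with no test, since the genes were ranked by this value.

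Other genes of sterol metabolism placed the members in their pathway. Among 14 further synthesis enzymes tested, 0 were called in malignant and 1 higher in benign against normal tissue, with 11 and 10 positive. Over all genes tested 4.42% were called higher and 2.88% lower in malignant tissue, and 6.45% and 5.46% in benign tissue, which is the background for all 4 lists. For unadjusted p under 0.05 the background is 3944 of 16806 genes in malignant and 4657 in benign against normal tissue. It is 2207 in malignant against benign tissue. DESeq2 called 2151, 2991 and 554 genes in the same order. By edgeR 4 of the 14 enzymes had an unadjusted p under 0.05 in malignant and 2 in benign tissue. DESeq2 called 0 and 2 of these enzymes. Their median log2 fold changes were 0.21 and 0.097. The enzyme called in benign tissue was GGPS1, which makes geranylgeranyl groups for protein anchoring, at 0.38 ± 0.13 with an adjusted p of 0.036, and it passed in 9 of 16 omissions of a dog. It was lost in 9 of 14 alternatives, among them the fit without dog as a block (0.25, adjusted p 0.34).

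A list of 8 genes held SREBF1, itself an SREBP gene, and genes that control SREBP. Of these 8, 0 were called by edgeR in any class comparison, with DESeq2 also at 0. By edgeR 0, 2 and 1 had an unadjusted p under 0.05 in malignant against normal, benign against normal and malignant against benign tissue. Their median log2 fold changes were -0.040 in malignant and 0.096 in benign against normal tissue. INSIG1, which holds SREBP back when sterols are plentiful and is itself an SREBP target, had medians of 40.02, 42.1 and 38.5 CPM in normal, benign and malignant libraries. Its log2 fold change was -0.18 ± 0.18 in malignant and 0.15 ± 0.16 in benign tissue. SREBF1, the paralog that drives fatty acid synthesis, had medians of 244, 205 and 200 CPM and log2 fold changes of -0.01 ± 0.16 and 0.03 ± 0.14. Neither passed, and the correlation of SREBF1 with the mean of the members was -0.10.

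Among 11 genes of uptake and export, 0 were called by edgeR in malignant tissue, with 4 at an unadjusted p under 0.05 and 1 called by DESeq2 (NR1H3), and 2 were called higher and 1 lower in benign tissue. In benign tissue SOAT1, which esterifies cholesterol for storage, rose by 0.71 ± 0.19 (adjusted p 0.0085) and ABCA1, which exports it, by 0.89 ± 0.25 (adjusted p 0.011). NR1H3, the sterol-sensing receptor LXR alpha, fell by 0.46 on the log2 scale with an SE of 0.15 and an adjusted p of 0.037. In omissions of each dog in turn, SOAT1 passed in 16 of 16 fits, ABCA1 in 15 (0.0535 without dog 13) and NR1H3 in 6 of 16 (up to 0.124, without dog 89). Of 14 alternatives SOAT1 and ABCA1 passed in 10 and NR1H3 in 7. NPC1, which moves cholesterol out of lysosomes, had the highest correlation of this list with the mean of the members, an r of 0.30.

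Of 8 genes of fatty acid synthesis, 3 were called higher in malignant and 2 in benign tissue, and 0 lower, against 4.42% and 6.45% of all genes called higher. Of the 8, 4 were positive in malignant and 7 in benign against normal tissue, with median log2 fold changes of 0.056 and 0.31. By edgeR 4 and 5 of them had an unadjusted p under 0.05, and DESeq2 called 3 and 2. The desaturases FADS2 and FADS1 rose in malignant tissue, by 0.86 ± 0.17 (adjusted p 0.0025, 14 of 16 dogs higher) and 0.82 ± 0.24 (adjusted p 0.028, 12 of 16 dogs higher). The median of FADS2 was 39.6 CPM in normal, 42.6 CPM in benign and 61.6 CPM in malignant libraries. ACLY was called in both tumor classes, at 0.34 ± 0.10 in malignant with an adjusted p of 0.022, and at 0.34 ± 0.08 in benign with an adjusted p of 0.0056. ELOVL6, a fatty acid elongase, was called in benign tissue, at 0.69 ± 0.18 with an adjusted p of 0.0071. FADS2 passed in 16 of 16 omissions of a dog, ACLY in 13 in malignant and 16 in benign tissue, FADS1 in 11 (0.0844 without dog 54) and ELOVL6 in 16. FADS1 was lost in 7 of 14 alternatives, and without dog as a block it was 0.51 with an adjusted p of 0.19. When libraries of high muscle score were left out, none of the genes named in these 4 lists passed in malignant or benign against normal tissue, and when the adipocyte score entered the model FADS1 alone did, in malignant tissue (log2 fold change 1.26, adjusted p = 0.0496). In malignant against benign tissue, 0 of the 41 genes of these 4 lists were called by edgeR. Of the 41, 9 had an unadjusted p under 0.05, against 2207 of 16806 genes, and DESeq2 called 3, against 554. These lay unevenly over the lists. Of the 8 fatty acid synthesis genes, 6 had such a p by edgeR and 3 were called by DESeq2. Their median log2 fold change of malignant against benign was -0.16, with 3 of 8 positive.

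**Figure D5:**
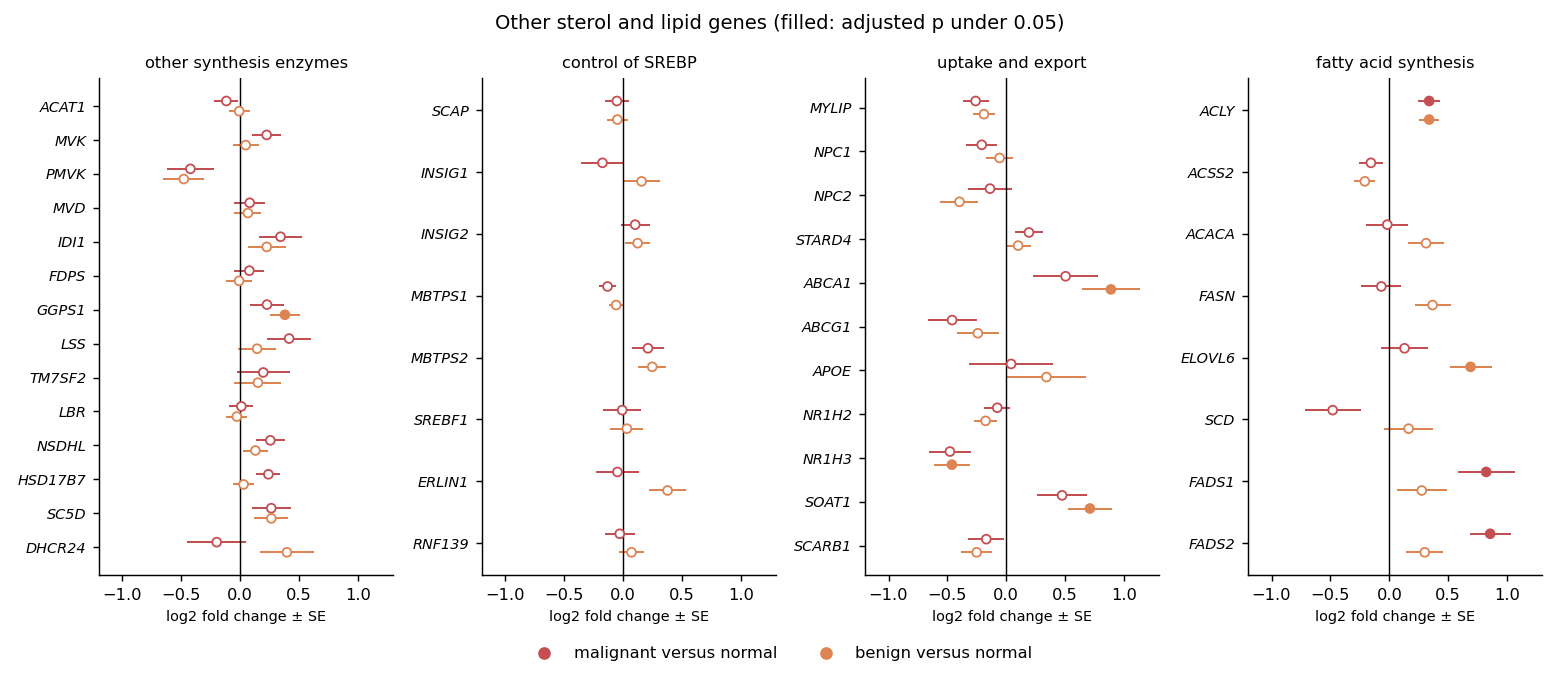
Log2 fold change with its SE of 41 further sterol and lipid genes in malignant (red) and benign (orange) against normal tissue, grouped by role, where filled points passed an adjusted p of 0.05. In the synthesis list GGPS1 alone is filled, and the largest filled value is ABCA1 in benign tissue (0.89).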

How the data were processed

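The submitters' processing notes name HISAT2, FastQC and the dog build CanFam3.1. The deposited files hold raw read counts per gene, one file per library. Counter, annotation release and strand setting are not named in these sources, so reads of overlapping or antisense genes may be mixed. A deposited table of scores per gene symbol has no stated method.

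Counts carry Ensembl identifiers. Symbols were obtained by matching each score column to the gene row with the same within-dog profile (for the members the correlation was at least 0.999925, and at most 0.744 with any other row); 154 of 11503 columns were used and 11349 were not. Reads without an alignment (37.4% on average), without a gene (16.0%) or ambiguous (0.078%) stayed out of library sizes. No libraries had identical counts (0 pairs).

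Classes and detailed histology types were fitted separately over all 89 libraries in edgeR 4.0.16 under R 4.3.3 (TMM; filterByExpr, minimum count 10, minimum total count 15; robust glmQLFit; glmQLFTest). Dog, which the labels give for every library, was a fixed block. All 7 members passed the filter. A call is a Benjamini-Hochberg adjusted p below 0.05 over all genes tested. The class fit alone was run on simulated counts, for malignant against normal and without simulated differences between dogs, and the outcome is not given here. The SE is the log2 fold change divided by the root of F. CPM used TMM-scaled library sizes and, without gene lengths, is not compared between genes. A list score averages the centred log2 CPM of its genes. Correlations used log2 CPM (prior count 2) after removal of dog and class, with 100000 permutations of libraries within dogs. Libraries of a dog and class are separate samples in the labels. The model adds class and dog without a joint term, so p-values measure the spread of libraries around that sum. This spread includes differences between dogs in the class change. Of 13 library preparations 8 held 1 dog, so preparation and dog cannot be told apart there; the 25 sequencing runs were a block in an alternative. Other alternatives were DESeq2 1.42.0, limma-voom (limma 3.58.1) with dog as a random effect, covariates and omissions. The dividing-cell and luminal scores as covariates were chosen after seeing the data.

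Members and gene lists were chosen with earlier results of these data known. Values are printed for the 7 members, for listed sterol and lipid genes called in at least 1 class comparison, for INSIG1 and SREBF1, and for the 8 genes with a symbol used here that were most like the members. Some genes of the pathway are not reported here and are in none of the counts of lists.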

Additional observations from a re-analysis of the deposited data

Results flagged for a closer look

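Among the 4 atypias the level of FDFT1 in normal replicate 9, from dog 29, was 63.85 CPM. It lay far below the others, the highest of which was 117.7 CPM, and the gap to the nearest took 0.839 of the range of the group. For the 7 genes, 21 groups of 4 to 10 libraries were examined in this way, and chance sets about 1 in 20 groups apart.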

How the results depend on the processing

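Limits: the calls of members rest on log2 fold changes under 1, and the normal class holds 8 of the 12 libraries of high muscle score and has the lowest median RNA integrity number. For malignant against normal tissue, 2 members were called; 4 were called with DESeq2 and in the 81 libraries with an RNA integrity number, 1 with counts summed per dog and class, and 0 when a covariate (RNA integrity number, adipocyte, dividing-cell or luminal epithelium score) was added or libraries of high muscle score were left out. For benign against normal, 1 was called; 2 were called by DESeq2 and again without atypias and carcinomas in situ, and 0 when the RNA integrity number or the adipocyte score was added, when libraries of high muscle score were left out and when counts were summed. In malignant against benign the count stayed at 0 in all alternatives run. Among the histology types, DESeq2 called 1 member in adenoma against lobular hyperplasia, and the fit without dog called 1 in carcinoma against lobular hyperplasia. The causes were not tested.

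Over all genes, 1227 were called in malignant against normal. The count was 1844 with dog as a random effect, 2151 by DESeq2, 759 without atypias and carcinomas in situ, 103 with the RNA integrity number, 20 with the adipocyte score, 41 with the dividing-cell score and 0 with the luminal score as a covariate, and 6 when libraries of high muscle score were left out. In benign against normal, 2002 were called, against 788 with sequencing run added, 793 with the dividing-cell score, 27 with the RNA integrity number, 0 with the adipocyte score and 1 when libraries of high muscle score were left out. In malignant against benign, 153 were called, against 554 with DESeq2, 362 without dog, 304 with dog as a random effect, 84 with the dividing-cell score, 72 without libraries of high muscle score, 27 without atypias and carcinomas in situ, and 0 with sequencing run, with summed counts and with the luminal score. Between histology types, the counts over alternatives other than the omission of a dog ran from 0 to 387 in adenoma, 5 to 1148 in complex adenoma and 0 to 1319 in carcinoma against lobular hyperplasia, from 2 to 200 in complex adenoma against adenoma and from 0 to 141 in carcinoma against adenoma. With each dog left out in turn they ran from 0 to 96, 1 to 443, 1 to 148, 0 to 43 and 0 to 1, in the same order.

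Libraries are paired by dog, per the labels. Without dog as a block, 1266 genes and 3 members were called in malignant against normal, SQLE with 0.83 and an adjusted p of 0.040 among them, and 1427 genes and 1 member in benign against normal. The log2 fold change turned sign without the block for FDFT1 in malignant against normal (0.01456), CYP51A1 and SREBF2 in complex adenoma against lobular hyperplasia (0.085 and 0.089) and ACAT2 in carcinoma against adenoma (0.047). With dog as a random effect the latter 3 were 0.080, 0.023 and 0.078. No other sign of a member turned under these fits.

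Other turns of sign concerned values that did not pass, NR1H3 excepted. FDFT1 in malignant against normal was 0.053 in the 81 libraries, 0.102 without high muscle scores and 0.087 with the luminal score. SREBF2 in benign against normal was 0.039 with the RNA integrity number, 0.025 with sequencing run and 0.0019 without atypias and carcinomas in situ. With the adipocyte score, benign against normal gave -0.0076 for FDFT1, -0.0021 for CYP51A1 and 0.0011 for NR1H3. In adenoma against lobular hyperplasia FDFT1 was -0.000174 with RLE size factors, -0.091 with the RNA integrity number, -0.169 with the adipocyte and -0.102 with the dividing-cell score, CYP51A1 -0.022 with the adipocyte and HMGCS1 -0.027 with the dividing-cell score. In complex adenoma against lobular hyperplasia SREBF2 was 0.0031 with the RNA integrity number, HMGCS1 -0.089 and SQLE -0.055 with the adipocyte score, CYP51A1 0.054 without high muscle scores and HMGCS1 -0.048 with the dividing-cell score. CYP51A1 in carcinoma against adenoma was -0.018 with the dividing-cell and -0.082 with the luminal score. SREBF1 in malignant against normal was 0.012 without a filter, 0.158 with the RNA integrity number, 0.096 with the adipocyte, 0.237 with the dividing-cell and 0.262 with the luminal score and 0.049 without high muscle scores, and in benign against normal -0.109 with summed counts.

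With each dog left out in turn, 1 to 4 members were called in malignant against normal, 1 to 2 in benign against normal and 0 in malignant against benign and in the 5 comparisons of types. Over all genes the counts ran from 287 to 1424, 975 to 3121 and 2 to 271 in the 3 class comparisons. Signs turned within these ranges: FDFT1 -0.110 to 0.016 and SREBF1 -0.100 to 0.075 in malignant against normal, SREBF2 -0.127 to 0.0053 and SREBF1 -0.047 to 0.088 in benign against normal, FDFT1 -0.079 to 0.081 and SREBF2 -0.041 to 0.201 in adenoma, and HMGCS1 -0.0043 to 0.234 and CYP51A1 -0.117 to 0.068 in complex adenoma against lobular hyperplasia, and ACAT2 -0.064 to 0.016 and CYP51A1 -0.045 to 0.061 in carcinoma against adenoma. Of the 21 pairs of members, 15 were correlated, against 17 with dog alone removed, 15 without high muscle scores and 16 without the 2 farthest libraries.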
